A study of Zea mays with 4 samples.

Results

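Beta-tubulin transcripts were measured in aerial material of the maize lines Cm489 and F98908 on Affymetrix maize arrays. The family was taken as every probe set whose single gene symbol or synonym is tub followed by a number, which gave 10 probe sets of 6 genes among 17555 maize probe sets. The genes are TUB2 (symbol TUBB2), tub3 (LOC542416), tub4 (LOC542417), tub5 (LOC542418, also listed as tub8), tub6 (LOC542239) and tub7 (LOC542705). TUB1 (LOC100273658) and TUB8 (LOC100501242) are not analysed here. There were 4 arrays, 2 of Cm489 and 2 of F98908, from plants 21 days old at the 7 leaf stage, grown in potting compost under a 16 h light and 8 h dark cycle at 50% relative humidity. Target was made with amplification and direct biotin labelling, and 20 ug of cRNA was hybridised. The labels give no treatment and no transgene, and the lines differ in the labels by name alone. The extract labels are separate for the Cm489 arrays, with 177 and 170 ug of RNA, whereas both F98908 arrays carry 1 extract label of 213 ug. Separate plants per array are nowhere stated, so the p-values cover array-to-array spread that may be technical.

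Beta-tubulin pairs with alpha-tubulin to form the dimer from which microtubules are built. In growing plant cells, microtubules under the plasma membrane guide the cellulose synthase complexes that lay down wall fibrils, and other microtubule arrays form the spindle and build the new cell plate during division. Plants carry several beta-tubulin genes with closely related coding sequences, which differ in the organs where they are expressed. The work behind the series addressed the diversity of the maize cell wall.

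The deposited values are log2 signals made with GCRMA, a method that corrects background, brings the arrays to a common distribution and gives 1 value per probe set and array. Array medians lay between 6.65 and 6.67, and the highest value of an array lay between 14.68 and 14.79. A probe set was tested if it exceeded log2 4 on at least 2 arrays, which 11262 did, among them all 10 beta-tubulin probe sets, each above log2 4 on every array. Levels of different probe sets depend on the probes as well as on the RNA and are not ranked against each other here. Fewer cells with a transcript and less transcript per cell cannot be told apart in such material. Of the leaf markers, rbcS, the Rubisco small subunit, lay between 11.53 and 12.28. The C4 phosphoenolpyruvate carboxylase gene pep1 was at 5.44 on Cm489 array 1 and between 1.86 and 1.91 on the others, and me3, an NADP-malic enzyme, was under log2 4 on all 4 arrays. The pyruvate phosphate dikinase gene pdk1 (Zm.4471.4.A1_at) read 9.38 and 8.88 in Cm489 and 9.76 and 9.69 in F98908, so its difference of 0.59 (limma, adjusted p = 0.153) had the opposite sign to that of rbcS (-0.47, adjusted p = 0.175). Neither was called. PDK1 (LOC541677, also pdlk1) matched the leaf list, and GLB1 (LOC541815, also Hb) the kernel list, by symbol alone, and both are left aside. Of the kernel markers, zp27, a zein storage protein gene, passed the filter on 1 of its probe sets, with values from 4.42 to 5.02 and no call (adjusted p = 0.0841), and globulin glb1 was under log2 4. The root-named gene zrp4, an O-methyltransferase, read 10.99 and 10.78 in Cm489 and 3.14 and 2.48 in F98908 (limma, adjusted p = 0.000798). It is the sole gene of its list, it moves with the lines as tub4 and tub6 do, and its part in their differences was not tested.

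All 6 beta-tubulin genes were detected in both lines, with values from 9.23 to 14.15. Transcripts of tub4 and tub6 were lower in F98908 than in Cm489, to 53.2% of the Cm489 signal for tub4 and to between 62.6% and 64.7% over the 4 probe sets of tub6. The remaining genes, TUB2, tub3, tub5 and tub7, differed by at most 0.24 on the log2 scale and did not pass the test. Over the family, 4 of 10 probe sets were called lower and 0 higher (limma, F98908 minus Cm489, adjusted p under 0.05, with 5 at an unadjusted p under 0.05). Of all 11262 tested probe sets, 8.02% were called lower and 7.27% higher. Among the 1757 tested probe sets with a mean over log2 11, as 9 of the 10 beta-tubulin probe sets have, 2.73% were called lower and 2.68% higher. Calls in either direction made up 15.3% of all tested probe sets. The 4 called members stand for 2 genes only, since 3 of them share tub6 as their target.

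**Figure D1:**
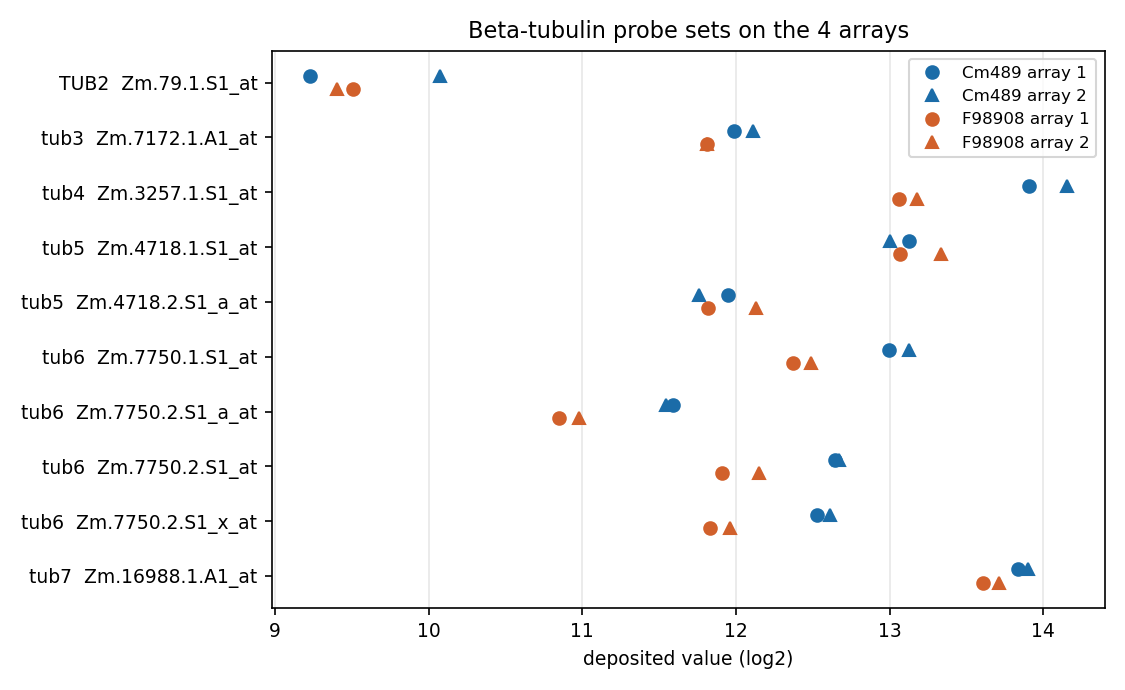
Deposited log2 values (horizontal axis) of the 10 beta-tubulin probe sets (rows) on each of the 4 arrays, with blue for Cm489, orange for F98908, circles for array 1 and triangles for array 2. For tub4 and the 4 probe sets of tub6 both F98908 arrays lie clearly to the left of both Cm489 arrays, while the lines overlap for tub5 and TUB2.

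The largest difference in the family was that of tub4. Its probe set Zm.3257.1.S1_at read 13.91 and 14.15 on the Cm489 arrays and 13.06 and 13.18 on the F98908 arrays. The lines did not overlap, and the lowest Cm489 value exceeded the highest F98908 value by 0.73. The mean fell from 14.03 ± 0.17 to 13.12 ± 0.08 (SD, n = 2 arrays per line), a log2 difference of -0.91 ± 0.14 SE (95% interval -1.30 to -0.52) or 1.88-fold, with an adjusted p of 0.0302 in limma's test. With the F98908 arrays counted as 1 sample the adjusted p was 0.190. Leaving out 1 array at a time gave differences from -1.03 to -0.79, and the call did not hold. Their sign is no check, since it is fixed where the lines do not overlap.

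For tub6 the array carries 4 probe sets, all lower in F98908. Zm.7750.1.S1_at read 12.99 and 13.13 in Cm489 and 12.37 and 12.49 in F98908. Zm.7750.2.S1_at read 12.65 and 12.67 in Cm489 and 11.91 and 12.15 in F98908. On each of the 4 probe sets both F98908 arrays lay below both Cm489 arrays, by at least 0.50 between the nearest values of the lines. Zm.7750.2.S1_a_at went from 11.57 ± 0.03 in Cm489 to 10.91 ± 0.09 in F98908, and Zm.7750.2.S1_x_at from 12.57 ± 0.06 to 11.90 ± 0.10 (SD, n = 2 arrays per line). By the maker's naming, _a_at probe sets may bind several transcripts of 1 gene, and _x_at probe sets also those of other genes. How far probes bind transcripts of other family members was not tested. The log2 differences of the 4 probe sets ran from -0.67 to -0.63, a span smaller than the standard error of any of them (0.11 to 0.13). Limma called 3 of the 4, with adjusted p values of 0.0445 for Zm.7750.1.S1_at, 0.0360 for Zm.7750.2.S1_a_at and 0.0356 for Zm.7750.2.S1_x_at. The fourth, Zm.7750.2.S1_at, was at 0.0556. These probe sets report on 1 gene and are not replicates of the comparison. With the F98908 arrays as 1 sample the called 3 had adjusted p values from 0.206 to 0.233, and with any single array left out they ranged from 0.0759 to 0.257.

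The genes tub3 and tub7 gave small differences in the same direction that were not called. Zm.7172.1.A1_at of tub3 read 11.98 and 12.11 in Cm489 and 11.81 on both F98908 arrays. Zm.16988.1.A1_at of tub7 read 13.83 and 13.90 in Cm489 and 13.61 and 13.71 in F98908. In both genes the lines did not overlap, but the gaps were narrow, 0.17 for tub3 and 0.12 for tub7. The difference of tub3 was -0.24 (95% interval -0.54 to 0.06, limma adjusted p = 0.223), and that of tub7 was -0.21 (95% interval -0.50 to 0.09, adjusted p = 0.274). Both intervals include 0, so a difference in either gene was not detectable with these arrays.

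For tub5 the means were slightly higher in F98908 and the lines overlapped. Zm.4718.1.S1_at read 13.12 and 13.003 in Cm489 and 13.07 and 13.34 in F98908, and Zm.4718.2.S1_a_at read 11.95 and 11.76 against 11.82 and 12.13. The differences were 0.14 (95% interval -0.26 to 0.54, limma adjusted p = 0.557) and 0.12 (95% interval -0.34 to 0.58, adjusted p = 0.654). Neither interval reaches the differences measured for tub4 and tub6, although it covers changes of either sign.

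TUB2 varied more between the Cm489 arrays than between the lines. Zm.79.1.S1_at read 9.23 and 10.07 in Cm489 and 9.51 and 9.40 in F98908. Both F98908 values fall between the Cm489 arrays, and the difference of -0.19 (95% interval -1.11 to 0.72, limma adjusted p = 0.723) turned to 0.23 without Cm489 array 2. Its mean was 9.65 ± 0.60 in Cm489 and 9.45 ± 0.08 in F98908 (SD, n = 2 arrays per line). In all, 7 of the 10 probe sets were lower in F98908 without overlap and 0 were higher without overlap, against 35.4% and 28.5% of all tested probe sets. The 7 stand for 4 of the 6 genes, since tub6 alone has 4 of them. Absence of overlap in either direction held for 63.9% of all tested probe sets.

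**Figure D2:**
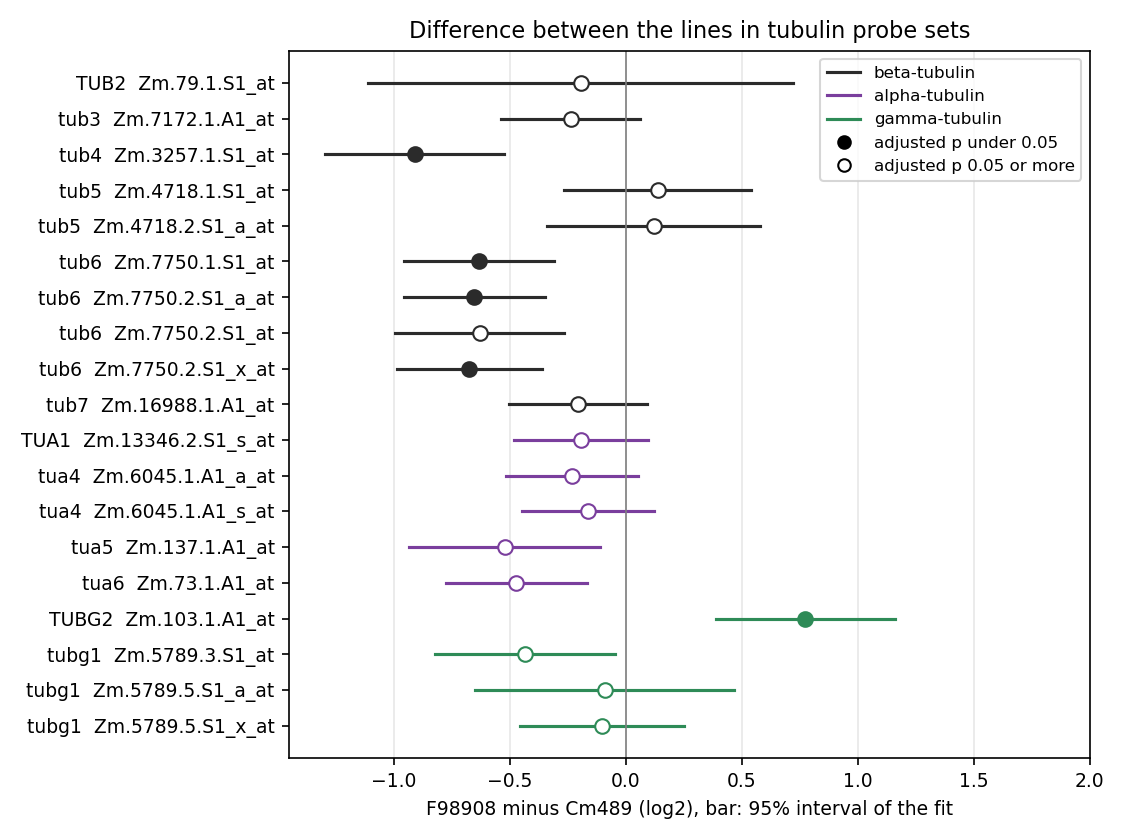
Log2 difference F98908 minus Cm489 (horizontal axis) with the 95% interval of limma's fit for beta-tubulin (black), alpha-tubulin (purple) and gamma-tubulin (green) probe sets that were tested, filled where the adjusted p is under 0.05. The beta-tubulin points of tub4 and tub6 lie between -0.91 and -0.63, those of tub5 at 0.12 and 0.14, and the filled gamma-tubulin point is TUBG2 at 0.77.

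The measured differences between the lines ranged from -0.91 for tub4 to 0.14 for tub5. Within an array, the log2 ratio of tub4 (Zm.3257.1.S1_at) to tub5 (Zm.4718.1.S1_at) was 0.78 and 1.15 in Cm489 and 0.00 and -0.16 in F98908, a change of -1.05. For tub5 (Zm.4718.1.S1_at) over tub6 (Zm.7750.1.S1_at) the ratio was 0.13 and -0.13 in Cm489 and 0.70 and 0.85 in F98908, a change of 0.77. The ratio of tub4 to tub6 changed by -0.28, and that of tub3 to tub7 by -0.03. Taking for every gene its brightest probe set, 10 of 15 pairs had ratios that did not overlap between the lines. The values of single probe sets did not overlap for 63.9% of all tested probe sets. The 15 pairs share 6 genes and are not independent. Each of the 10 pairs without overlap had an exact two-sided permutation p of 0.333, the smallest that 2 arrays against 2 allow. After Benjamini-Hochberg adjustment over the 15 pairs it was 0.5. The design therefore cannot place any of these ratios past the threshold, and they are given as values only.

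Apart from TUB2 in Cm489, beta-tubulin probe sets differed by at most 0.31 between the arrays of a line. Over the 10 probe sets the median absolute difference of the Cm489 arrays was 0.125, beside 0.207 over all tested probe sets, and that of the F98908 arrays was 0.126, beside 0.131. No beta-tubulin probe set passed 1 log2 unit in either line, against 4.72% of tested probe sets in Cm489 and 1.96% in F98908. With shares that low, 10 probe sets are too few to tell the family from the rest. Array 1 lay above array 2 in Cm489 for 3 of the 10 (48.1% of all tested probe sets), and below array 2 in F98908 for 9 of the 10 (50.5%). The widest was TUB2 in Cm489, at -0.84 for array 1 minus array 2. Both tub5 probe sets were higher on array 1 than on array 2 in Cm489 (by 0.12 and 0.19), and the other way round in F98908 (-0.27 and -0.31). This pattern was shared by 3 of the 10 beta-tubulin probe sets, the third being Zm.7750.2.S1_a_at of tub6, against 32% of all tested probe sets.

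All 5 genes taken as markers of dividing cells ran with tub5 in this respect. The longer cell division list holds these 5 and others. Of its 13 genes, 9 had the pattern on their brightest probe set, against 32% of all tested probe sets. PCNA, the sliding clamp of DNA replication, read 10.60 and 9.73 in Cm489 and 9.85 and 10.50 in F98908. Array 1 minus array 2 had a median over the 5 markers of 0.73 in Cm489 and -0.65 in F98908. Their summed signal, as log2, was 13.62 and 12.92 in Cm489 and 12.72 and 13.13 in F98908, and none was under log2 4. Between the lines these markers had a median of 0.00. For 1 of the 5 markers limma's p before adjustment was under 0.05, and 0 were called. In either direction, 15.3% of all tested probe sets were called. At that share, 5 genes are too few for 0 calls to show that the lines are alike in these markers. The part of these markers in the values of tub5 was not tested. For tub4 and tub6 the lines did not overlap, so leaving out 1 array could not change the sign of their differences. The part of dividing cells in those differences was not tested either.

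**Figure D3:**
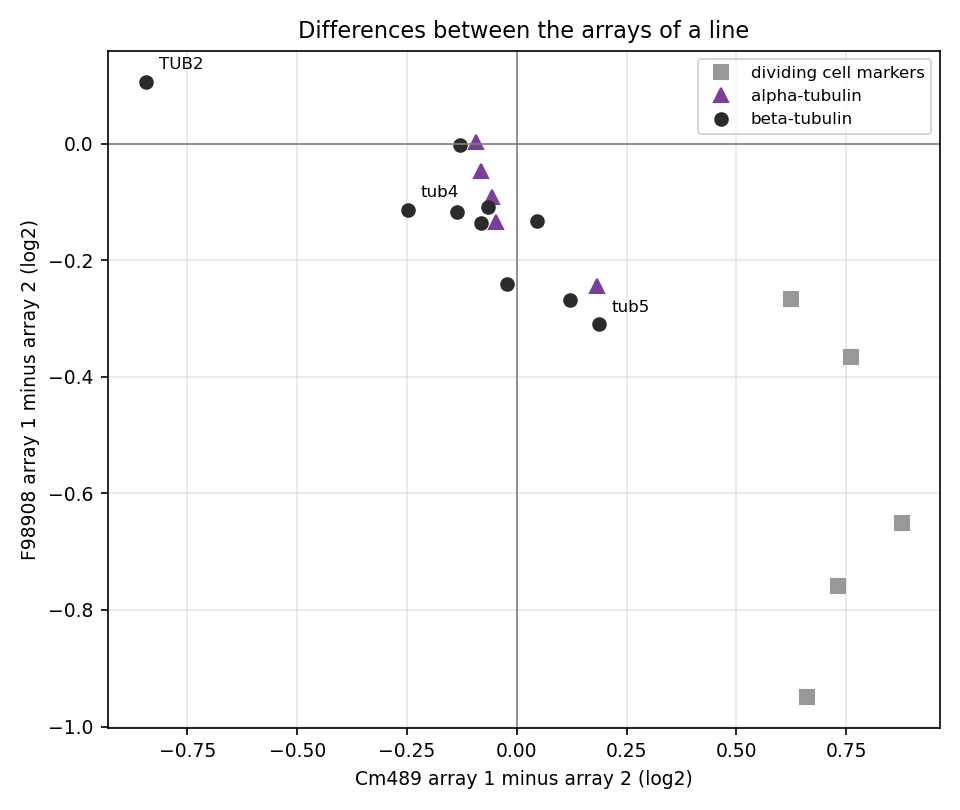
Array 1 minus array 2 in Cm489 (horizontal axis, log2) against the same in F98908 (vertical axis, log2) for beta-tubulin probe sets (black), alpha-tubulin probe sets (purple triangles) and 5 markers of dividing cells (grey squares). The beta-tubulin probe sets sit within 0.25 in Cm489 except TUB2 at -0.84, and the dividing cell markers all sit at the lower right, with array 1 higher in Cm489 and array 2 higher in F98908.

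Of alpha-tubulin, the partner in the dimer, 4 genes were measured and none was called, beside 15.3% of all tested probe sets. With 1 probe set per gene, the brightest, 4 of 4 had a negative difference without overlap between the lines (35.4% of all tested probe sets), with a median of -0.33 beside -0.03 over all tested probe sets, and limma called 0, with 2 at an unadjusted p under 0.05. The gene tua6 (Zm.73.1.A1_at) read 13.51 and 13.56 in Cm489 and 12.998 and 13.13 in F98908. Its difference was -0.47 (95% interval -0.78 to -0.17, adjusted p = 0.0684). The gene tua5 (Zm.137.1.A1_at) read 13.40 and 13.22 in Cm489 and 12.66 and 12.91 in F98908, a difference of -0.52 (95% interval -0.93 to -0.11, adjusted p = 0.10). For TUA1 and tua4 the differences were -0.19 and -0.16, with intervals that include 0. A further TUA1 probe set was under log2 4 on every array and was not tested.

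Gamma-tubulin, which starts new microtubules, differed in the other direction in 1 of its 2 genes, where 7.27% of all tested probe sets were called higher. TUBG2 (Zm.103.1.A1_at) read 6.52 and 6.42 in Cm489 and 7.12 and 7.37 in F98908, and rose by 0.77 ± 0.14 SE (limma, adjusted p = 0.0420). The adjusted p was 0.180 with the F98908 arrays as 1 sample and at least 0.0960 with any array left out. The other gene, tubg1, had a difference of -0.43 on its brightest probe set Zm.5789.3.S1_at (adjusted p = 0.125), and -0.09 and -0.10 on the other 2 that were tested.

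Other proteins that act with the cytoskeleton were taken from 2 lists. In the list for microtubule binding and the plane of division, limma called 0 of 16 genes, beside 15.3% of all tested probe sets. Of the 16, 5 had an unadjusted p under 0.05 in that test, and the median difference was 0.01. The list splits into 8 kinesins, motors that walk along microtubules, and 8 rop genes, small GTPases that organise cell shape. The kinesins had differences from -0.20 to 0.48, with a median of 0.29 and 1 negative. Those of the rop genes ran from -0.90 to 1.17, with a median of -0.26 and 7 negative. All 5 genes with an unadjusted p under 0.05 were rop genes. Between the arrays of a line 7 of 8 kinesins and 5 of 8 rop genes ran with tub5, against 32% of all tested probe sets. The smallest p was that of rop9 (difference -0.90, adjusted p = 0.0548). On the list for actin binding, limma called 1 of 6 measured genes, lower in F98908, and left 5 uncalled, where 8.02% of all tested probe sets were called lower. The gene that fell was brk1, a small subunit of the complex that drives actin branching and lobing of leaf epidermal cells, at 12.28 and 12.50 in Cm489 and 11.46 and 11.34 in F98908 (difference -0.99, limma adjusted p = 0.0229). Its adjusted p was 0.163 with the F98908 arrays as 1 sample, 0.0483 without Cm489 array 1 and at least 0.0664 with another array left out. Of those 6, abp1 and abp4 are auxin-binding proteins that matched by symbol alone. The list for actin matched no gene, and the 2 genes matched for tubulin folding are ferredoxins.

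The cellulose synthases of primary walls, whose complexes travel along the microtubules, had 2 of 9 genes called lower and 0 higher, where 8.02% and 7.27% of all tested probe sets were called, and a median of -0.27. CesA-1 (Zm.15912.1.S1_at) read 11.49 and 11.68 in Cm489 and 10.88 and 10.93 in F98908, and CesA-6 (Zm.521.1.S1_at) 11.22 and 11.10 against 10.46 and 10.57. Their differences of -0.68 and -0.65 (limma, adjusted p = 0.0407 and 0.0405) are close to those of tub6, without a test of that likeness. Neither was called with the F98908 arrays as 1 sample or with any array left out. In the 4 genes for secondary walls limma called 0, with 2 at an unadjusted p under 0.05, a median of 0.43 and the smallest p for cesa11 (0.50, adjusted p = 0.112). Of 13 genes matched for cell division limma called 0 by the brightest probe set, with 1 at an unadjusted p under 0.05, and the median difference was 0.00. Among these brightest probe sets the smallest p was that of the histone gene his2b5 (-0.76, adjusted p = 0.151). The probe sets of the linker histone gene H1 disagreed. Its brightest, Zm.6393.4.S1_x_at, had a difference of -0.29 (limma, adjusted p = 0.570), while Zm.6393.2.S1_x_at read 4.16 and 4.21 in Cm489 and 11.35 and 11.29 in F98908 and was called higher (7.13, adjusted p = 0.000273). Another, Zm.6393.1.A1_x_at, differed by 1.60 (adjusted p = 0.107). The cyclotide gene on that list has another function.

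The named genes whose profile lay nearest to a beta-tubulin probe set were found by the Euclidean distance between 4 centred log2 values. The pool was 960 tested probe sets with a gene symbol. Genes known by a LOC number alone were passed over, and each gene was taken once. The search was done for the 3 beta-tubulin probe sets with the widest range, those of tub4, TUB2 and, for tub6, Zm.7750.2.S1_x_at. Nearest to tub4 were IBP1, an initiator-binding protein (distance 0.146), hk3, a cytokinin receptor kinase (0.176), and brk1 (0.180). IBP1 was at 4.93 ± 0.10 in Cm489 and 3.99 ± 0.20 in F98908 (SD, n = 2 arrays per line), close to the level under which probe sets were left out. Nearest to tub6 were HP1, a phosphotransfer protein of cytokinin signalling (0.0441), CesA-1 (0.0947) and fad7, a fatty acid desaturase (0.114). HP1 read 11.64 and 11.73 in Cm489 and 10.93 and 11.12 in F98908. Nearest to TUB2 were gdh1, a glutamate dehydrogenase (0.124), ccp2, a cysteine protease (0.196), and AMA1 (0.203). The gene gdh1 read 10.03 and 10.92 on the Cm489 arrays and 10.21 and 10.26 in F98908, so it shares the rise on Cm489 array 2. With 4 arrays from 2 lines, genes with any difference of that size between the lines come out as near.

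**Figure D4:**
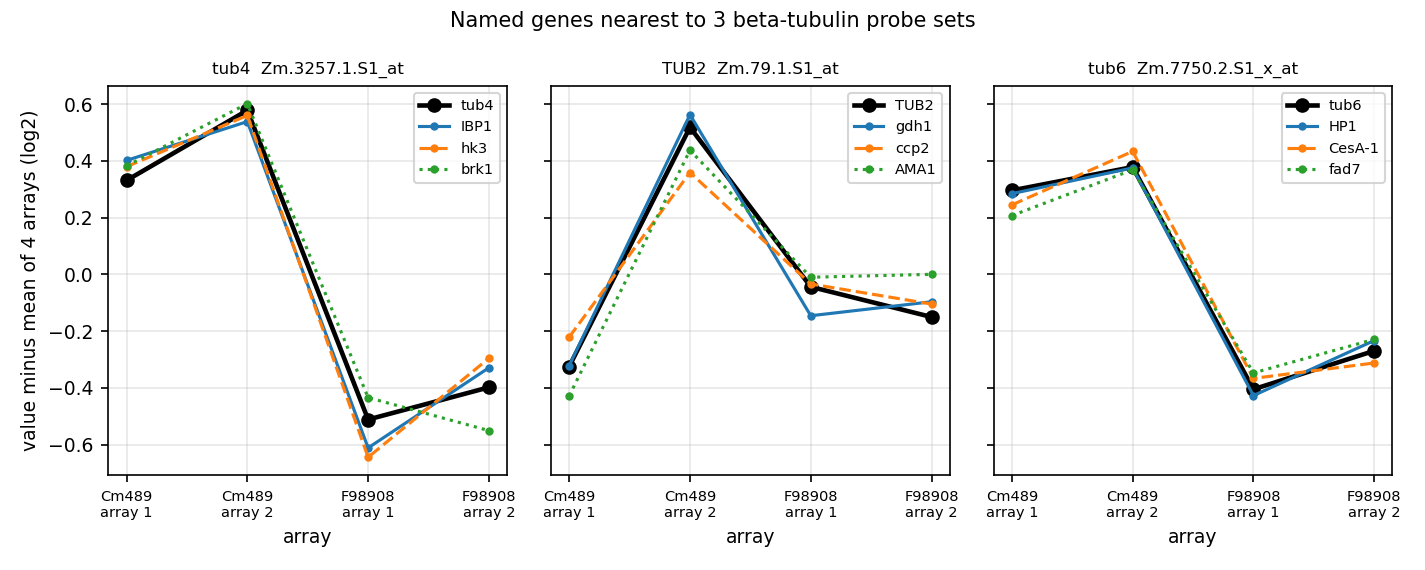
Log2 value minus the mean of the 4 arrays (vertical axis) for 3 beta-tubulin probe sets (thick black) and the 3 named genes nearest to each, with lines joining the arrays only to guide the eye. The profiles of tub4 and tub6 separate the lines, and that of TUB2 separates the Cm489 arrays.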

How the data were processed

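The deposited log2 values of the 4 arrays were made by GCRMA, per the submitters' processing notes, with no version given in the sources used here. No scanner files or detection calls were used. Of 17734 probe sets, 179 array controls and reporter sequences were left out. Gene names came from the platform annotation, joined by gene number to the RefSeq table of Zm-B73-REFERENCE-NAM-5.0: 1452 probe sets carry 1 symbol (1377 matched), 1 carries several and was left unnamed, and 16102 have no name in that annotation. No positions are given because no build is named for the values. The test was that of limma 3.58.1 under R 4.3.3 (eBayes after lmFit, two-sided, no replicate block), adjusted by Benjamini-Hochberg over all 11262 tested probe sets, with 1.79 prior and 2 residual degrees of freedom. The fit was tested on simulated data. The number of arrays limits the precision.

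Members and lists were chosen with earlier results of these data known. All members are described. Of each list, up to 3 called genes with the smallest p were named, or the gene with the smallest p as values. The names zrp4, rbcS, pep1, me3, pdk1, zp27, glb1, H1, tua4, tua5, TUA1, tubg1, PCNA and cyclotide, the genes not on a list's topic, and the split into kinesins and rop genes were chosen after values were seen. Lists use the brightest probe set of each gene. Alternatives changed the filter on dim probe sets, the scaling, the prior, the probe set types, the replicate block and the arrays used.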

Additional observations from a re-analysis of the deposited data

How the results depend on the processing

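The 8 negative differences of beta-tubulin probe sets kept their sign except TUB2 (0.23 without Cm489 array 2). The 2 positive ones of tub5 did so except Zm.4718.2.S1_a_at (-0.034 without F98908 array 2). For the most part this is no check. The filter, the block, the prior, the probe set types and F98908 as 1 sample leave these differences unchanged. Leaving out 1 array cannot turn the sign of the 7 probe sets without overlap. Calls were less stable. With 1 array left out, or with F98908 as 1 sample, the spread comes from fewer arrays, and a line with 1 value is assumed to vary like the other line. Why calls were lost under these settings, the filter, the block or the prior was not tested. The 4 beta-tubulin calls did not hold in fits that leave a line with 1 value. They became 1 without a filter on dim probe sets (Zm.7750.2.S1_a_at). With plain _at probe sets only they became 2, since this setting removes the called Zm.7750.2.S1_a_at and Zm.7750.2.S1_x_at. Without the filter tub4 (-0.91), Zm.7750.1.S1_at (-0.63) and Zm.7750.2.S1_x_at (-0.67) lost the call at adjusted p = 0.0682, 0.0646 and 0.0506. With F98908 as 1 sample tub4 (-0.91) and the tub6 probe sets Zm.7750.1.S1_at, Zm.7750.2.S1_a_at and Zm.7750.2.S1_x_at (-0.63, -0.65 and -0.67) lost it. With 1 array left out their differences ran from -1.03 to -0.79, -0.70 to -0.56, -0.72 to -0.59 and -0.74 to -0.61. With a prior that follows the mean level Zm.7750.2.S1_at (-0.63) was called too (adjusted p = 0.0361). TUB2 ran from -0.62 to 0.23 and Zm.4718.2.S1_a_at from -0.034 to 0.28 with 1 array left out.

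Whether same-numbered arrays were handled as pairs is not known. Their deviations from the line means correlated at -0.365 over the tested probe sets, so they tended to deviate in opposite directions. With the replicate number as a block, 0 beta-tubulin probe sets were called (tub4 -0.91, tub6 -0.63, -0.65 and -0.67), 0 list genes in either direction, and 409 probe sets higher and 371 lower over all. With the numbers crossed, a choice made after seeing the data, 1 beta-tubulin probe set was called, and 885 probe sets higher and 968 lower over all.

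Over all probe sets the counts of 819 higher and 903 lower became 248 and 170 with F98908 as 1 sample, 257 to 543 and 176 to 536 with 1 array left out, and 505 higher with a mean over log2 6. For the other lists together, 1 gene was called higher and 3 lower. There were 0 higher without the filter and 5 lower with the prior that follows the mean, where tua6 and rop9 joined. Fits that leave a line with 1 value did not keep the same set of called genes, so no count is given for them. With 1 array left out the differences ran from 0.65 to 0.90 for TUBG2 and from -1.09 to -0.88 for brk1. Those of CesA-1 ran from -0.77 to -0.58 and those of CesA-6 from -0.71 to -0.58. Without the filter the 2 list genes called lower were prf5 and rop4, and not brk1, CesA-1 or CesA-6. Among the genes near TUB2, gdh1 (-0.68 to 0.20 with 1 array left out), ccp2 (-0.43 to 0.15) and AMA1 (-0.44 to 0.42) turned positive without Cm489 array 2, and AMA1 (0.024) with each array centred on its median.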
